A study of Mus musculus with 12 samples.

Results

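Itga1, Itga11 and Itgb5 encode integrin subunits, and their probes were 3 of the 768 probes measured in 12 hearts of mouse embryos. They were picked by gene symbol. Itga1 was picked because its level was low in hearts without Slc25a1, and Itga11 and Itgb5 were taken to set another collagen-binding subunit and a subunit of a different receptor beside it. All 3 passed the filter on low values, a mean of at least 20 counts per heart. Slc25a1 encodes the mitochondrial citrate carrier, which passes citrate from the mitochondrial matrix toward the cytosol. The hearts came from E17.5 embryos, late in gestation, of matings between heterozygous knockout mice, and 4 were homozygous knockouts (KO), 4 heterozygotes (HET) and 4 wild type (WT). The sources used here do not give the knockout allele, the strain or each embryo's litter, and name no treatment for any group. RNA of each heart was counted on the NanoString nCounter platform, in which colour-coded probes bound to transcripts are counted without amplification, and the deposited value of a gene is its ratio to Tbp, a general transcription factor, in the same heart.

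Integrins are cell surface receptors made of 1 alpha and 1 beta subunit, and they tie the cytoskeleton to the extracellular matrix. The alpha subunits encoded by Itga1 and Itga11 both pair with the beta subunit encoded by Itgb1 and both bind collagen through an inserted domain in the alpha chain. The Itga1 receptor prefers the collagen IV of basement membranes, and the Itga11 receptor, a protein of fibroblasts and mesenchyme, prefers fibrillar collagens. Itgb5 encodes a beta subunit that pairs with alpha v, and this receptor binds vitronectin and can take part in the activation of latent transforming growth factor beta.

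Total counts recovered from the ratios were 1285512 to 1565516 per heart, with Tbp counts of 276 to 433, so that counting error in Tbp alone puts an error of 4.81% to 6.02% on every ratio of a heart. Slc25a1 followed the labels, with mean ratios of 0.0985 ± 0.0182 in KO, 0.345 ± 0.0404 in HET and 0.613 ± 0.00721 in WT hearts (SD, n = 4 each). Of the cell type lists used here, 6 of 19 fibroblast and mesenchyme markers, 3 of 17 endothelial markers and 15 of 23 leukocyte markers had a probe. So did 1 of 13 mural cell markers, Pdgfrb, and 1 of 10 erythroid markers, Tfrc. No cardiomyocyte marker did, so the tissue label could not be checked against its defining genes. The hearts KO replicate 1, HET replicate 4 and WT replicate 2 each had the highest mesenchyme level of its genotype. Their mean centred log2 values over the 6 mesenchyme genes were 1.14 in the KO, 1.41 in the HET and 1.11 in the WT heart, against -0.02 to 0.76 in the other 9 hearts. Centred values are log2((count + 1) / Tbp count) less the median of the 695 genes tested in that heart, which removes Tbp from the comparison.

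Itga1, the alpha subunit of the collagen IV receptor, had its lowest mean in KO hearts and its highest in WT hearts. Its ratio to Tbp was 3.89, 5.61, 4.71 and 6.02 in KO replicates 1 to 4. In HET replicates 1 to 4 it was 6.44, 5.72, 6.16 and 4.52, and in WT replicates 1 to 4 it was 7.91, 6.78, 6.61 and 8.33. Every KO heart and every HET heart lay below every WT heart, while KO and HET hearts overlapped with each other. Genotype means were 5.06 ± 0.949 in KO, 5.71 ± 0.849 in HET and 7.41 ± 0.841 in WT hearts (SD, n = 4 each). The KO mean was thus 68.3% of WT and the HET mean 77.1% of WT. Between 1549 and 2448 counts stood behind each value, a counting error of 2.02% to 2.54%, and with the error of Tbp added counting would give a coefficient of variation of 5.86% in KO, 5.98% in HET and 5.99% in WT hearts. The coefficients measured between hearts were 18.8%, 14.9% and 11.3% in that order of genotypes.

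Centring on the heart's median narrowed every genotype's spread. On that scale Itga1 was 1.67, 1.97, 1.89 and 2.05 in KO hearts and 2.10, 1.98, 2.11 and 1.92 in HET hearts, against 2.35, 2.28, 2.32 and 2.37 in WT hearts, each by replicate. The mean was 1.90 ± 0.16 in KO, 2.03 ± 0.09 in HET and 2.33 ± 0.04 in WT hearts (SD, n = 4 each), where the log2 SD before centring was 0.28, 0.23 and 0.16 in that order. Again no KO or HET heart reached the lowest WT heart, and KO and HET hearts overlapped. A bulk measurement cannot tell fewer Itga1-expressing cells from less Itga1 RNA per cell.

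**Figure D1:**
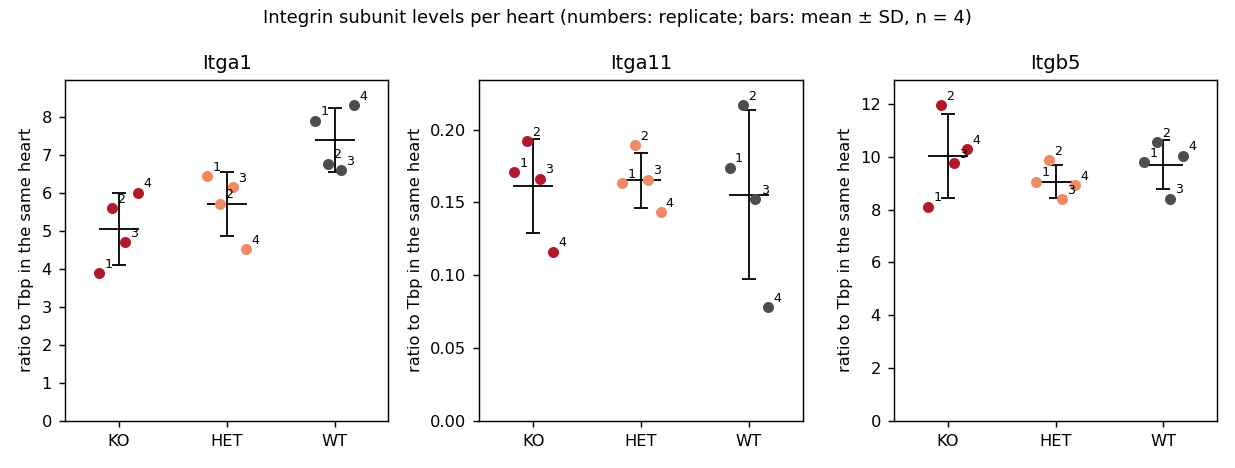
Ratio to Tbp (vertical axis, from 0) of Itga1, Itga11 and Itgb5 in each of 4 KO, 4 HET and 4 WT hearts, with the replicate number beside each point and bars for the mean ± SD. For Itga1 all KO and HET points lie below the lowest WT point at 6.61, whereas the genotypes overlap for Itga11 and Itgb5, and WT replicate 4 is the lowest Itga11 point at 0.0782.

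The KO against WT contrast was the one that picked Itga1, so its values are a description. In limma, with 1 mean per genotype over all 12 hearts, Itga1 had a log2 change of -0.56 (SE 0.156), the 5th lowest of 695 genes, where the median gene had -0.13. The size of this change depended on the scaling, with -0.36 under quantile normalization and -0.30 with voom weights on total counts. Of the 695 genes, 2.59% had all 4 KO hearts below all 4 WT hearts on the deposited scaling, and 0.144% were called lower, a call being a Benjamini-Hochberg adjusted p under 0.05. In KO against WT after median centring Itga1 had a change of -0.43 (SE 0.0795), where 3.74% of genes had all KO hearts below all WT hearts and 0.288% were called lower.

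HET hearts had no part in that choice, although the WT hearts they are set against did. In HET against WT hearts Itga1 had a log2 change of -0.38 (SE 0.156, 95% interval -0.72 to -0.05), the 4th lowest of 695 genes. The call was not made, with a limma p of 0.0283 and an adjusted p of 0.871 over all genes. All 4 HET hearts were below all 4 WT hearts, which held for 0.719% of genes in this direction, and 0.144% were called, the 1 gene being Slc25a1. With median centring the change was -0.30 (SE 0.0795) with a limma adjusted p of 0.667. On that scale 1.29% of genes had all HET hearts below all WT hearts, and limma called 0 genes, with 50 at an unadjusted p under 0.05. The adjusted p of Itga1 in HET against WT lay between 0.15 and 0.999 over the alternatives tried, median centring with 1 heart left out included, and the change between -0.44 and -0.25.

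Itga1 had a log2 change of -0.18 (SE 0.156) in KO against HET hearts, given without a test because its KO level was the basis of its choice, and 12 of 16 pairs of a KO and a HET heart had the KO heart lower. Without KO replicate 1, the lowest of all 12 hearts for Itga1, this change was -0.06, and without HET replicate 4 it was -0.29. On the deposited scaling 4 genes, or 0.576% of those tested, had all KO and all HET hearts below all WT hearts. They were Itga1, Slc25a1, Aoc2 and Ldhc, named here after their values were seen. After median centring there were 3, Itga1, Slc25a1 and Psph, or 0.432%. Both comparisons share the WT hearts. Itga1 was picked for its low level in KO hearts, so its place among these genes is a description and no support.

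Itga11, the collagen-binding alpha subunit of fibroblasts, was measured on few counts and its genotype means lay within each other's spread. Its ratio to Tbp was 0.171, 0.192, 0.166 and 0.116 in KO replicates 1 to 4. The HET replicates had 0.163, 0.189, 0.166 and 0.143, and the WT replicates 0.174, 0.217, 0.152 and 0.0782. All 3 genotypes overlapped, and WT hearts held both the highest and the lowest value. Means were 0.161 ± 0.0322 in KO, 0.165 ± 0.0188 in HET and 0.155 ± 0.0580 in WT hearts (SD, n = 4 each), so that neither KO at 104% of WT nor HET at 106% of WT left the WT spread.

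Those Itga11 ratios rested on 36 to 68 counts per KO heart, 47 to 63 per HET heart and 23 to 77 per WT heart. The lowest probe of any kind had 5 to 9 counts in a heart, and negative control probes were not analysed here, so the share of background in these counts is unknown. Counting error alone would give a coefficient of variation of 14.7% in KO, 14.7% in HET and 16.5% in WT hearts, against 19.9%, 11.4% and 37.3% measured. The HET spread was therefore no larger than counting error, and the WT spread was the largest of the 3.

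In limma Itga11 had a log2 change of 0.17 in HET against WT (SE 0.245, 95% interval -0.36 to 0.69, adjusted p = 0.871) and of -0.05 in KO against HET (SE 0.245, 95% interval -0.58 to 0.47, adjusted p = 0.973). In KO against WT its change was 0.12 (SE 0.245), given as a description. WT replicate 4 set the direction against WT. Without that heart, whose Itga11 value was 23 counts, the change was -0.12 in HET against WT and -0.17 in KO against WT.

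Itgb5, the beta subunit of the vitronectin receptor, had a ratio to Tbp close to its WT level in KO and HET hearts. Its centred mean was higher in KO than in WT hearts, as given below. Its ratio to Tbp was 8.11, 11.96, 9.75 and 10.3 in KO replicates 1 to 4, while the HET replicates had 9.06, 9.88, 8.39 and 8.93 and the WT replicates 9.81, 10.6, 8.41 and 10.04. KO hearts held both the lowest and the highest of the 12 values, and the genotypes overlapped. Means were 10.03 ± 1.59 in KO, 9.06 ± 0.615 in HET and 9.71 ± 0.919 in WT hearts (SD, n = 4 each), on 2484 to 4235 counts per heart. The order of the means was KO, WT and HET, and neighbours in it differed by less than the larger SD of the pair.

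By limma Itgb5 had a log2 change of -0.10 in HET against WT (SE 0.129, 95% interval -0.37 to 0.18, adjusted p = 0.871) and of 0.13 in KO against HET (SE 0.129, 95% interval -0.14 to 0.41, adjusted p = 0.937), and neither was called. Calls in KO against HET were made for 0.432% of genes. In KO against WT the change was 0.04 (SE 0.129) on the deposited scaling and 0.17 (SE 0.101) after median centring, both as a description. The centred Itgb5 level was 2.89 ± 0.14 in KO, 2.70 ± 0.16 in HET and 2.72 ± 0.13 in WT hearts (SD, n = 4 each), and KO replicates 2 and 3, at 3.06 and 2.94, lay above every WT and HET heart.

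Ratios between the subunits within a heart set the collagen-binding subunits beside Itgb5 with no use of Tbp. The 2 probes of a ratio may bind with different efficiency, so a ratio is compared between hearts and not read as a level of one protein against another. The log2 ratio of Itga1 over Itgb5 was -1.06, -1.09, -1.05 and -0.78 in KO replicates 1 to 4. It was -0.49, -0.79, -0.45 and -0.98 in HET replicates 1 to 4, against -0.31, -0.64, -0.35 and -0.27 in WT replicates 1 to 4. All KO hearts were below all WT hearts, and 2 of 4 HET hearts were. Against HET hearts, 3 of 4 KO hearts lay below every one.

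Means of the Itga1 over Itgb5 log2 ratio were -0.99 ± 0.15 in KO, -0.68 ± 0.25 in HET and -0.39 ± 0.17 in WT hearts (SD, n = 4 each). The difference of KO from WT was -0.60 (SE 0.111), a description because it holds the contrast that picked Itga1. The difference of HET from WT was -0.28 (SE 0.152), which a two-sided exact permutation test of 4 against 4 hearts did not separate from 0 (p = 0.143, adjusted p = 0.257 over 3 ratios), where the smallest p that test allows is 0.0286. HET replicate 4 moved that value by more than 1.5 times, to -0.18 when it was left out.

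Itga11 over Itgb5, the other collagen-binding subunit against the same partner probe, showed no such order. Its mean log2 ratio was -5.94 ± 0.37 in KO, -5.76 ± 0.13 in HET and -6.02 ± 0.62 in WT hearts (SD, n = 4 each). For HET against WT the difference was 0.26 (SE 0.318, two-sided exact permutation p = 0.686, adjusted p = 0.686), and -0.04 without WT replicate 4. For KO against WT it was 0.08 (SE 0.361), and -0.23 without WT replicate 4.

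Between the collagen-binding subunits, the log2 ratio of Itga1 over Itga11 was 4.95 ± 0.50 in KO, 5.08 ± 0.18 in HET and 5.63 ± 0.73 in WT hearts (SD, n = 4 each). The HET hearts differed from WT by -0.55 (SE 0.378, two-sided exact permutation p = 0.171, adjusted p = 0.257). WT replicate 4, with a ratio of 6.67, decided much of its size, and without it the difference was -0.20 (p = 0.343 by the same exact test). Without WT replicate 2 it was -0.78 (exact p = 0.0571, the smallest that 4 against 3 hearts allow). KO hearts differed from WT by -0.68 (SE 0.444), as a description, with 3 of 4 KO hearts below every WT heart, and by -0.33 without WT replicate 4.

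**Figure D2:**
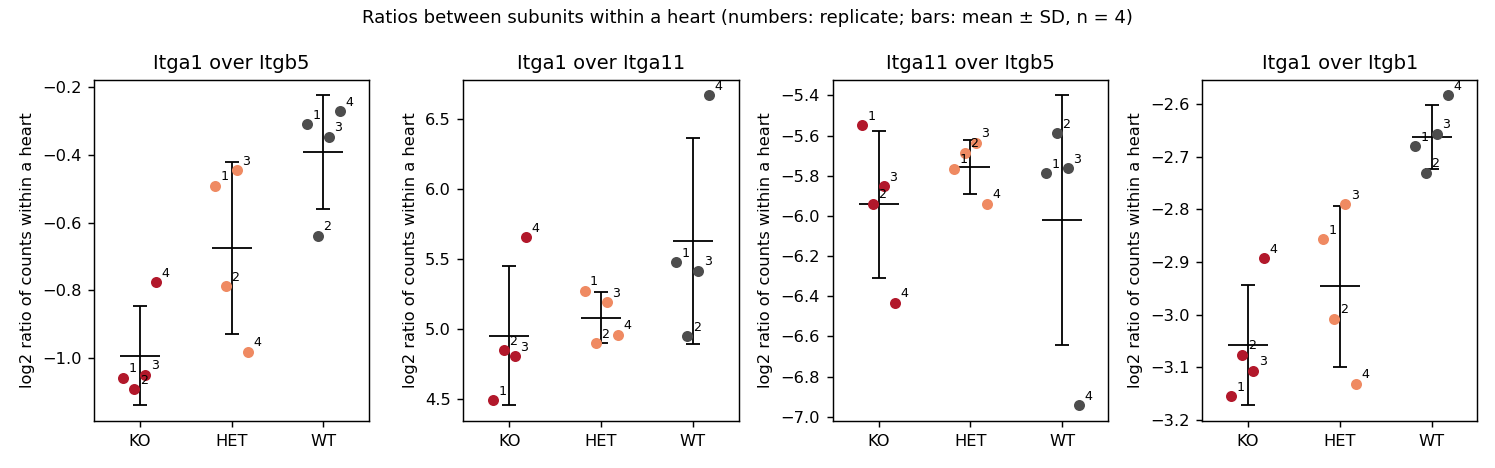
Log2 ratio of the counts of 2 subunits within a heart (vertical axis) for Itga1 over Itgb5, Itga1 over Itga11, Itga11 over Itgb5 and Itga1 over Itgb1 in KO, HET and WT hearts, with replicate numbers and bars for the mean ± SD (n = 4). KO points lie below all WT points for Itga1 over Itgb5 and for Itga1 over Itgb1. WT replicate 4 is the highest point for Itga1 over Itga11, at 6.67, and the lowest for Itga11 over Itgb5, at -6.94.

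Itgb1 encodes the obligate partner of both alpha subunits and was abundant, with 12620 to 17159 counts per heart. Its ratio to Tbp was 34.7, 47.4, 40.6 and 44.7 in KO replicates 1 to 4, with 46.7, 46.1, 42.6 and 39.6 in HET and 50.7, 45.0, 41.7 and 49.9 in WT replicates. The genotypes overlapped, and the log2 changes were -0.17 in KO against WT (SE 0.123, limma adjusted p = 0.464) and -0.10 in HET against WT (limma adjusted p = 0.871). Without KO replicate 1 the KO change of Itgb1 was -0.08, and without HET replicate 4 the HET change was -0.05. The log2 ratio of Itga1 over Itgb1, a comparison added after the values were seen, was -3.06 ± 0.11 in KO, -2.95 ± 0.15 in HET and -2.66 ± 0.06 in WT hearts (SD, n = 4 each).

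No KO and no HET heart reached the lowest WT heart in that ratio to Itgb1. HET differed from WT by -0.28 (SE 0.0826, two-sided exact permutation p = 0.0286, the smallest that 4 against 4 hearts allow, adjusted p = 0.114 over 4 ratios), and KO differed from WT by -0.40 (SE 0.0651), as a description. The WT hearts of this test are those on which Itga1 was picked.

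Beyond the 3 subunits and Itgb1, the panel held Itgam and Itgb2, which form a receptor of myeloid leukocytes. Itgam had log2 changes of -0.40 in KO against WT (SE 0.205, limma adjusted p = 0.371) and -0.05 in HET against WT (limma adjusted p = 0.945). Itgb2 had changes of -0.14 in KO against WT (SE 0.199, limma adjusted p = 0.679) and 0.22 in HET against WT (limma adjusted p = 0.871). Of the 3 integrin genes besides the members, limma called 0 in any of the 3 comparisons, on the deposited scaling or after median centring, and 0 had an unadjusted p under 0.05 on either. The share of all genes at that unadjusted p was 3.17% to 18.6%, by comparison and scaling. All 3 were below WT in KO hearts, as were 74.8% of the 695 genes, and 2 of 3 were below WT in HET hearts, as were 67.3% of genes, all on the deposited scaling. After median centring 3 of 3 were below WT in KO hearts and 1 of 3 in HET hearts. Single hearts decided the sizes for Itgb2, whose change in KO against WT lay between -0.31 and -0.01 with 1 heart left out, and the sign for Itgam in HET against WT, between -0.20 and 0.09.

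The panel also held 10 genes of the matrix to which such receptors bind, and limma called 0 of 10 in either direction in any of the 3 comparisons, on the deposited scaling or after median centring. At an unadjusted p under 0.05 there was 1 of 10 in KO against WT, beside 11.1% of all genes, 1 of 10 in HET against WT, beside 3.17%, and 0 of 10 in KO against HET, beside 3.88%. After median centring there were 3 of 10 in KO against WT, beside 18.6% of all genes, 0 of 10 in HET against WT, beside 7.19%, and 1 of 10 in KO against HET, beside 8.35%. In KO hearts 7 of 10 lay below WT, and the median of their log2 changes was -0.14 beside -0.13 over all genes. In HET hearts 4 of 10 did, with a median of 0.08 beside -0.07 over all genes. After median centring 5 of 10 lay below WT in KO hearts and 3 of 10 in HET hearts. On the deposited scaling the changes furthest from 0 in KO hearts were those of thrombospondins and laminins, whereas after median centring Col6a3, a collagen VI chain, at 0.24 lay further from 0 than the laminins Lamc1 at -0.15 and Lama4 at -0.12. Thbs1 and Thbs2, secreted thrombospondins that bind matrix and cell surface receptors, had log2 changes of 0.46 (SE 0.166, limma adjusted p = 0.371) and 0.38 (SE 0.235, limma adjusted p = 0.399) in KO against WT. Single hearts moved both by more than 1.5 times, with 0.27 for Thbs1 without WT replicate 4, and for Thbs2 0.64 without WT replicate 2 and 0.22 without WT replicate 4. Laminins are basement membrane proteins, and the laminin chains Lamc1 and Lama4 had changes of -0.28 (SE 0.138) and -0.25 (SE 0.128) in KO against WT, both at a limma adjusted p of 0.371.

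Col4a1 and Col4a2, named outside the rule because collagen IV is the ligand that the Itga1 receptor prefers, had log2 changes of -0.21 (SE 0.121) and -0.17 (SE 0.137) in KO against WT and of -0.02 and 0.02 in HET against WT. Without KO replicate 1 the KO changes were -0.12 for Col4a1 and -0.08 for Col4a2, and left-out hearts turned the sign of both HET changes. The ratio of Col4a1 to Tbp was 7.51 to 9.88 in KO, 8.91 to 11.4 in HET and 9.74 to 11.1 in WT hearts. KO and WT hearts overlapped for this ligand, and HET hearts spanned the WT range.

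Downstream of integrins, Ptk2 encodes focal adhesion kinase, and Sos1 and Sos2 encode exchange factors that link receptors to Ras. Limma called 0 of these 3 in any comparison on either scaling. At an unadjusted p under 0.05 there were 0 of 3 on the deposited scaling, beside 3.17% to 11.1% of all genes. After median centring there were 1 of 3 in KO against WT, beside 18.6% of all genes, 1 of 3 in HET against WT, beside 7.19%, and 0 of 3 in KO against HET, beside 8.35%. In KO against WT the log2 changes were -0.12 for Ptk2, -0.01 for Sos1 and 0.04 for Sos2 on the deposited scaling, and 0.00950, 0.12 and 0.17 after median centring. Smad2, Smad3 and Smad4, which carry transforming growth factor beta signals to the nucleus, had changes of -0.03, -0.01 and -0.10 in KO against WT on the deposited scaling. All 3 lay above WT after median centring, where 49.8% of all genes lay below. Limma called 0 of these 3, with 1 of 3 at an unadjusted p under 0.05 in KO against WT after median centring, beside 18.6% of all genes, and 0 of 3 in the other comparisons.

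**Figure D3:**
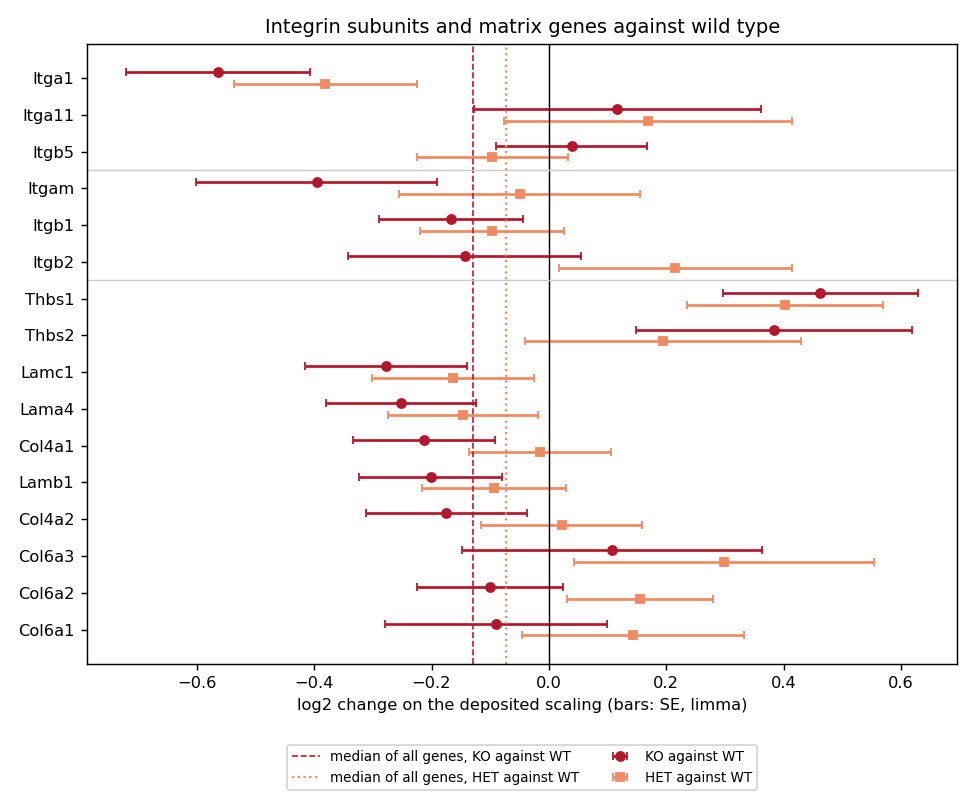
Log2 change on the deposited scaling (horizontal axis) of the 3 subunits, the other 3 integrin genes and the 10 matrix genes in KO hearts (circles) and HET hearts (squares), each against WT hearts, with bars for the limma SE and vertical lines at the median of all genes, -0.13 and -0.07. Itga1 lies furthest to the left in both comparisons, at -0.56 and -0.38, and both comparisons share the WT hearts.

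Within each genotype Itga1 tended to be lower in hearts with a higher mean level of 6 mesenchyme genes, though not alike for each gene. The 6 mesenchyme genes measured were Col6a1, Col6a2, Col6a3, Thbs2, Pdgfrb and Cyp1b1, of which Thbs2 and the collagen VI genes are also among the matrix genes above, and none was at 0, with at least 22 counts in every heart. Their summed ratio to Tbp was 22.2 to 27.8 in KO, 21.3 to 33.0 in HET and 19.5 to 32.8 in WT hearts. Limma called 0 of 6 in any comparison, with 0 of 6 at an unadjusted p under 0.05 on either scaling, beside 3.17% to 18.6% of all genes. On the deposited scaling 3 of 6 lay below WT in KO hearts, beside 74.8% of all genes, and 1 of 6 in HET hearts, beside 67.3%. After median centring all 6 lay above WT in both KO and HET hearts, where 49.8% and 47.3% of all genes lay below. Their median centred change was 0.14 in KO against WT, beside 0.00117 over all genes, and 0.25 in HET against WT, beside 0.00673. Of the 6, Cyp1b1 had the widest spread in each genotype, on 22 to 226 counts. Its centred value was -1.61 in KO replicate 1, -1.19 in HET replicate 4 and -2.06 in WT replicate 2, against -4.37 to -2.86 in the other hearts. Centred Thbs2 and collagen VI genes were also highest in these hearts within each genotype, but centred Pdgfrb was highest in replicate 3 of each. The mean centred level of the list was 0.64 ± 0.37 in KO, 0.71 ± 0.51 in HET and 0.44 ± 0.49 in WT hearts (SD, n = 4 each). KO and HET hearts, lower in Itga1 than WT hearts, thus had higher mesenchyme means than WT hearts, by less than the SD. That opposite order did not hold between KO and HET hearts. KO hearts had the lower mean centred Itga1, 1.90 against 2.03 in HET hearts, and also the lower mesenchyme mean. In KO hearts the mean centred level of the 6 genes was 1.14, 0.40, 0.70 and 0.33 in replicates 1 to 4, exactly opposite in order to centred Itga1. In HET hearts it was 0.30, 0.76, 0.36 and 1.41, and in WT hearts 0.21, 1.11, 0.44 and -0.02, where the order was again opposite in WT and opposite in HET but for replicates 1 and 3, which were close in both measures.

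The part of mesenchyme cells in the Itga1 level was not tested. Without KO replicate 1, HET replicate 4 and WT replicate 2 the log2 change of Itga1 was -0.48 in KO against WT. For HET against WT it was -0.31 (limma adjusted p = 0.684). After median centring it was -0.28 for HET hearts (limma adjusted p = 0.298). Leukocyte markers had a summed ratio of 2.35 to 3.64 in KO, 3.01 to 3.87 in HET and 2.32 to 4.34 in WT hearts, with the lowest of the 15 at 8 counts, and the highest KO, HET and WT hearts in that sum were the same 3 hearts. Of the sum in these hearts, Cpa3 alone gave 1.64 in KO, 1.52 in HET and 1.66 in WT. By ratio to Tbp, Cd68 was also highest in WT replicate 2, but in HET it was highest in replicate 2, and in KO lowest in replicate 1. Ptprc by that ratio was highest in KO replicate 1 and WT replicate 2, and in HET in replicate 3. On centred values Ptprc was highest in all 3 of these hearts, with -2.01 in HET replicate 4 against -2.15 in replicate 3. Centred Cd68 was again highest in replicate 2 of HET and WT. In KO centred Cd68 was lowest in replicate 2, at -1.66 against -1.59 in replicate 1. Limma tested 11 of the 15 and called 0 in any comparison on either scaling. At an unadjusted p under 0.05 there were 4 of 11 in KO against HET (3.88% of all genes). There was 1 of 11 in HET against WT (3.17%) and in KO against WT (11.1%). After median centring these were 2, 2 and 1 of 11 (8.35%, 7.19% and 18.6%). In HET hearts 2 of 11 lay below WT (67.3% of all genes), and 1 of 11 centred (47.3%). In KO hearts 6 of 11 did (74.8%), and 5 of 11 centred (49.8%). The part of leukocytes in the Itga1 level was not tested either.

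Endothelial genes were also looked at because capillary endothelium is among the cells known to carry the Itga1 receptor. The summed ratio of the 3 endothelial markers was 11.2 to 16.2 in KO, 14.3 to 20.6 in HET and 16.1 to 24.7 in WT hearts, with at least 180 counts for each gene. Most of that sum was Cd36, a fatty acid translocase that other heart cells also express, which had a log2 change of -0.59 in KO against WT (SE 0.167, limma adjusted p = 0.371). After median centring the Cd36 change was -0.46 (limma adjusted p = 0.0973). All KO hearts lay below all WT hearts for Cd36 on both scalings, as held for 2.59% of genes before and 3.74% after centring. Limma called 0 of the 3 endothelial genes in any comparison on either scaling. At an unadjusted p under 0.05 there was 1 of 3 in KO against WT (11.1% of all genes, 18.6% centred). The same held in KO against HET (3.88%, 8.35% centred), with 0 of 3 in HET against WT (3.17%, 7.19% centred). The VEGF receptor Flt1 and the endothelial nitric oxide synthase Nos3 had changes of 0.01 (SE 0.163) and 0.06 (SE 0.165) in KO against WT and of -0.05 and 0.00411 in HET against WT, and their genotypes overlapped. With median centring Flt1 and Nos3 had changes of 0.14 and 0.19 in KO against WT and of 0.03 and 0.08 in HET against WT. KO replicate 1, the lowest heart for Itga1, had the lowest KO ratio to Tbp for both. The part of endothelial cells in the Itga1 level was not tested. Tfrc, the 1 erythroid marker measured, had a log2 change of -0.42 in KO against WT (SE 0.150, limma adjusted p = 0.371), and of -0.29 after median centring. Its unadjusted p there was under 0.05 on both scalings, beside 11.1% and 18.6% of all genes. In HET against WT its change was -0.31 (limma adjusted p = 0.871). The part of erythroid cells was not tested.

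For Itga11 the highest centred value of a genotype fell in the heart highest in mesenchyme genes in KO (-2.82 in replicate 1) and in WT (-2.67 in replicate 2), though not in HET, where replicate 2 had -2.91 and replicate 4 had -3.04. The lowest value of all, -4.31 in WT replicate 4, fell in the heart lowest in mesenchyme genes of the 12. Itgb5 showed no such order in KO hearts, where replicate 1 was highest in mesenchyme genes and had the lowest centred Itgb5 at 2.73. In HET and WT hearts the highest Itgb5 values, 2.90 in HET replicate 4 and 2.92 in WT replicate 2, fell in the hearts highest in mesenchyme genes.

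**Figure D4:**
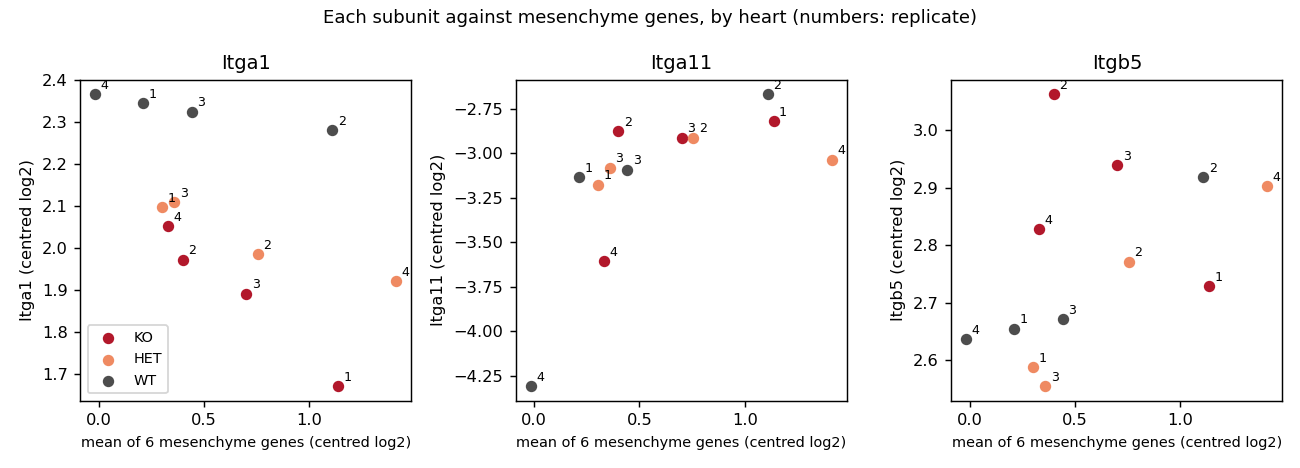
Centred log2 value of Itga1, Itga11 and Itgb5 (vertical axes) against the mean centred log2 value of 6 mesenchyme genes (horizontal axis) in the 12 hearts, coloured by genotype and labelled by replicate. For Itga1 the points of each genotype descend to the right, but for HET replicates 1 and 3, with WT points above the others, and for Itga11 WT replicate 4 lies at the lower left, at -4.31.

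Other genes were ranked by likeness to each subunit with Pearson's r of centred log2 values over the 12 hearts, among 694 genes. As these r are the highest of 694 and the hearts share genotype and centring, they are a description with no test. The genes most like Itga1 were Fahd1, a mitochondrial oxaloacetate decarboxylase (r = 0.88), Lamtor2, a subunit of the Ragulator complex on lysosomes (r = 0.86), Pik3cb, a catalytic subunit of PI3-kinase (r = 0.85), and the respiratory chain subunits Ndufb4 (r = 0.85) and Uqcrq (r = 0.84). With genotype means removed these r were 0.65 to 0.85, and without the 2 hearts furthest from the median of Itga1 they were 0.69 to 0.77 over 10 hearts.

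Most like Itga11 were Hmox1, a heme oxygenase (r = 0.77), Thbs1 (r = 0.77), Aox1, an aldehyde oxidase (r = 0.75), Tlr7, a receptor for single-stranded RNA (r = 0.74), and Thbs2 (r = 0.72). Of these 5, 3 rested on the outlying hearts. Without the 2 hearts furthest from the Itga11 median, r was 0.37 for Thbs1, 0.41 for Aox1 and 0.16 for Tlr7, against 0.82 for Hmox1 and 0.78 for Thbs2. The collagen VI gene Col6a3 ranked 7th (r = 0.71), named here after its rank was seen. Itgb5 was most like Pck2, the mitochondrial form of phosphoenolpyruvate carboxykinase (r = 0.87), the immune checkpoint molecule Cd276 (r = 0.80), the lysosomal enzymes Naglu (r = 0.80) and Hexa (r = 0.79), and Ass1, an enzyme of arginine synthesis (r = 0.79), and these r were 0.75 to 0.85 without the 2 furthest hearts.

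The 3 subunits were not among each other's nearest genes. Itga1 and Itga11 had r = -0.44 and Itga1 and Itgb5 r = -0.38, at ranks 563 and 527 of 694 by likeness to Itga1. Itga11 and Itgb5 had r = 0.40, at rank 132 by likeness to Itga11. The partner Itgb1 ranked 223rd for Itga1 (r = 0.31), 271st for Itga11 (r = 0.15) and 42nd for Itgb5 (r = 0.55), with which it forms no receptor. Laminin Lamc1 ranked 33rd for Itga1 (r = 0.77), while Thbs1 and Thbs2 ranked 683rd and 664th of 694 (r = -0.75 and -0.68).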

How the data were processed

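The ratio of each of 768 probes to Tbp in the same heart was deposited by the authors for 12 hearts. The sources used here name neither the panel nor any background subtraction, control scaling or software. Counts per heart were recovered by trying whole-number Tbp counts upward until every ratio times that number was whole within 0.01, so they are the smallest the ratios permit. Values were log2((count + 1) / Tbp count), a scale that shrinks the changes of weakly counted genes. A mean count of at least 20 was required, and 72 probes missed it, so that with Tbp also removed 695 genes were tested. limma 3.58.1 in R 4.3.3 was fitted once over all hearts with 1 mean per genotype, with Benjamini-Hochberg adjustment over all genes. Ratios within a heart were compared by two-sided exact permutation. The script was tested on simulated data. A count model was not run, as counts were recovered from ratios. Alternatives covered pseudocount, filter, scaling, variance model, weights, samples, a replicate block and each heart left out. The named genes were the members, Slc25a1, the other integrin genes, up to 4 genes per list by size of the KO change, and the 5 genes most like each member. The members and lists were chosen with earlier results of these data known. No batch, litter or sex is labelled. Hearts are separate embryos. Plots used Python 3.11.15 and matplotlib 3.10.9.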

Additional observations from a re-analysis of the deposited data

Results flagged for a closer look

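With 30 sets of 4 hearts looked at, 3 subunits on each scale and 4 ratios in each genotype, 4 values stood apart from the other 3 hearts of their set, and chance flags about 1 in 20 sets. Centred Itga11 in KO replicate 4 was -3.60, with the other KO hearts between -2.91 and -2.82. Centred Itgb5 in WT replicate 2 was 2.92, with the other WT hearts between 2.64 and 2.67. The Itga1 over Itgb5 log2 ratio in KO replicate 4 was -0.78, with the other KO hearts between -1.09 and -1.05. The Itga11 over Itgb5 log2 ratio in WT replicate 4 was -6.94, with the other WT hearts between -5.79 and -5.59.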

How the results depend on the processing

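No alternative turned the sign of the Itga1 change or of a ratio with Itga1. Itga1 in KO against WT moved by more than its spread with voom weights on total counts, to -0.30. Itgb5 in KO against WT also moved by more than its spread, to 0.23 with quantile normalization and 0.31 with voom. Itgb5 in HET against WT turned to 0.0104 and 0.0374 under these settings, and Itga11 in KO against HET to 0.0619 and 0.0796, and to 0.0165 with housekeeping centring. With 1 heart left out, the change of Itga11 ran from -0.12 to 0.36 in HET against WT, from -0.14 to 0.0938 in KO against HET, and from -0.17 to 0.30 in KO against WT, and that of Itgb5 in KO against WT from -0.05 to 0.14. The difference of HET from WT then ran from -0.0430 to 0.41 for Itga11 over Itgb5, from -0.78 to -0.20 for Itga1 over Itga11, from -0.37 to -0.18 for Itga1 over Itgb5 and from -0.34 to -0.22 for Itga1 over Itgb1, where the exact permutation p was 0.0571 each time, the smallest that 4 against 3 allow. The count of genes called in KO against WT was 1, and 3 with median centring, 2 with housekeeping centring and 4 with quantile normalization. It was 2 with trend and robust variance, 10 with voom, 166 with heart weights and 2 without the 3 hearts highest in mesenchyme genes. In HET against WT it was 1, and 0 with median or housekeeping centring, with voom or without the 3 hearts, and 4 with heart weights. In KO against HET it was 3, and 5 with trend and robust variance, 8 with voom and 7 with heart weights. With 1 heart left out the counts were 1 throughout in KO against WT, 0 to 1 in HET against WT and 1 to 3 in KO against HET. Replicate numbers did not pair the hearts (correlations of same-numbered hearts from -0.51 to 0.36), and with a replicate block the Itga1 over Itgb1 difference in HET against WT was -0.28 with p = 0.125 by exact sign flips, the smallest that 4 pairs allow, while the call counts were 1, 1 and 2. Without the 3 hearts highest in mesenchyme genes that difference was -0.25 (exact permutation p = 0.1, the smallest 3 against 3 allow). The cause of these shifts was not tested. Depth limits Itga11, with 23 to 77 counts per heart.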
